A study of Bos taurus with 8 samples.

Results

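The loci of MBP, which encodes myelin basic protein, and of CAMK2A, which encodes the alpha subunit of calcium/calmodulin-dependent protein kinase II, were followed across 8 cattle tissues. They were 2 of the 24886 loci of the RNA-Seq table that carried an Ensembl transcript identifier. They were selected on their FPKM in the frontal cortex, where MBP was the most abundant gene, and on their low FPKM elsewhere, so these levels are a description and were not tested. The study made 1 RNA-Seq library per tissue, from whole testes, frontal cortex, intercaruncular uterus, mammary gland parenchyma, abomasum (the glandular stomach), ileum, rumen (a forestomach) and nucleated blood cells. The animals were Hereford cattle, namely the cow of the reference genome and her relatives, and the labels name no treatment. In the sample list of the study, the testes were from an adult male, the uterus and blood cells from adult females, the cortex, mammary gland, abomasum and ileum from juvenile females, and the rumen from a male fetus. That list is headed as the methylation samples, and the study refers to it for the RNA-Seq tissues too. Whether each RNA came from the same animal as listed is not given in the sources used here. Tissue, sex, age, animal and library therefore cannot be told apart, and no difference between tissues has a replicate check.

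MBP is one of the main proteins of myelin, the membrane sheath that oligodendrocytes wrap around axons in the brain, and it holds the inner faces of the sheath together. The gene is also known to give rise to longer transcripts, called golli, that start farther upstream and have been described in immune cells and neurons. CAMK2A is a kinase subunit of excitatory forebrain neurons, concentrated at synapses, where it responds to calcium entry and takes part in synaptic plasticity. Other myelin and neuronal genes were not analysed here.

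The MBP locus, ENSBTAT00000002984, was placed on chromosome 24 between 2485370 and 2590645 of UMD3.1, over 105276 bases. The CAMK2A locus, ENSBTAT00000026762, was placed on chromosome 7 between 63575254 and 63641115, over 65862 bases. The table does not pair identifiers with gene symbols, so the names rest on the position of each locus. In the RefSeq gene table of another assembly, ARS-UCD2.0, MBP is on chromosome 24 with a span of 104445 bases and CAMK2A on chromosome 7 with a span of 65824 bases. These spans differ from those of the loci by 0.796% and 0.0577%. The span alone does not single out a gene, since 3 RefSeq genes of chromosome 24 and 5 of chromosome 7 were within 1% of it. RefSeq lists 4 transcripts for MBP and 3 for CAMK2A, whereas the table holds 1 level per locus, so the isoforms cannot be told apart. The locus spans include introns, and exons were not analysed here. No other locus of the table overlapped MBP or CAMK2A. The defining markers of the tissues could not be looked up by name, because 0 of 26547 identifiers matched the RefSeq table.

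Levels are given in FPKM, which relates fragments to transcript length and to all mapped fragments, as the authors deposited them. The recovered read depth, scaled by the authors' software, was 9288000 reads in frontal cortex and lay between 6032000 (mammary gland) and 15513000 (rumen) in the others. On a transcript of 1000 bases, 3 reads, the floor used here (the one-sided 95% limit of a count of 0), corresponded to 0.264 FPKM in rumen, 0.442 FPKM in frontal cortex and 0.680 FPKM in mammary gland. The transcript lengths at both loci are not known from the table, so read numbers and two-sided 95% Poisson intervals are given for a transcript of 1000 bases. A longer transcript would hold more reads at the same FPKM and have a narrower interval. The intervals cover counting error only, and not the spread between animals, which cannot be estimated from 1 library.

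In frontal cortex, the MBP level was 9930 FPKM (9855 to 10005). It was the highest of all 24886 genes and made up 1.66% of their summed FPKM. The next most abundant gene had 8200 FPKM, so MBP exceeded it by a factor of 1.21. CAMK2A had 688 FPKM in cortex (668 to 708) and ranked 118th, with 0.115% of the summed FPKM. Both genes were thus far above the cortex floor, and MBP was 14.4 times CAMK2A on the FPKM scale, which accounts for transcript length. A gene was called enriched in cortex if it had at least 1 FPKM there and exceeded the second tissue at least 5-fold on the FPKM + 1 scale. Of the 10 most abundant cortex genes 3, MBP among them, were enriched, and of the 118 genes at or above CAMK2A, 20. Over all 24886 genes the number was 599 (2.41%).

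Outside the cortex, MBP remained above 1 FPKM in each of the 7 other tissues. The highest of these levels was 88.8 FPKM in nucleated blood cells (82.6 to 95.2). It was followed by 30.1 FPKM in mammary gland (25.2 to 35.7) and 22.5 FPKM in ileum (18.7 to 26.9). Blood cells thus stood apart from the remaining tissues, at 2.95 times the mammary gland level (2.45 to 3.57). MBP had 20.4 FPKM in rumen (17.9 to 23.2), 13.6 FPKM in abomasum (11.4 to 16.1) and 11.1 FPKM in uterus (8.83 to 13.8). Whole testes had the lowest level, 2.41 FPKM (1.43 to 3.80), corresponding to 18.1 reads on 1000 bases. In this order, the intervals of mammary gland and ileum, of ileum and rumen, and of abomasum and uterus overlapped, and those of the other neighbours did not. The range outside cortex was wide, with blood cells 36.9 times above testes (23.2 to 62.5). MBP ranked 1064th of 24886 genes in blood cells, within the top 4.28%, and 2717th in mammary gland, within the top 10.9%. In testes it ranked 12655th, where 14483 genes had at least 1 FPKM, so it was among the lower of these.

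CAMK2A showed another picture outside the cortex, with under 1 FPKM in each of the 7 tissues. The highest level was 0.800 FPKM in ileum (0.235 to 1.97), or 4.39 reads on 1000 bases. Rumen had 0.558 FPKM (0.212 to 1.19) and whole testes 0.557 FPKM (0.158 to 1.40). These 3 tissues were the only ones that reached 3 reads on 1000 bases. Uterus had 0.317 FPKM (0.0483 to 1.05), mammary gland 0.128 FPKM and abomasum 0.103 FPKM, all below this floor of 3 reads. CAMK2A was listed at 0 in nucleated blood cells, where 3 reads on 1000 bases correspond to 0.341 FPKM. The intervals of all neighbours outside cortex overlapped, so no order of the 7 tissues could be seen at this depth. The authors' software compares libraries only at loci with enough alignments, and it marked CAMK2A as not tested in all 21 pairs of tissues without cortex and as tested in the 7 pairs with it. MBP was marked as tested in all 28 pairs. Whether a listed 0 was a true absence or a failed estimate was not tested. Blood cells were listed at 0 for 14 of the 3743 genes that had at least 10 FPKM in each other tissue. Every other library was listed at 0 for 0 or 1 gene of this kind. CAMK2A belongs to a family of closely related kinase genes, and with the default parameters reads that align to several genes are divided among them, so low levels of such genes are uncertain.

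**Figure D1:**
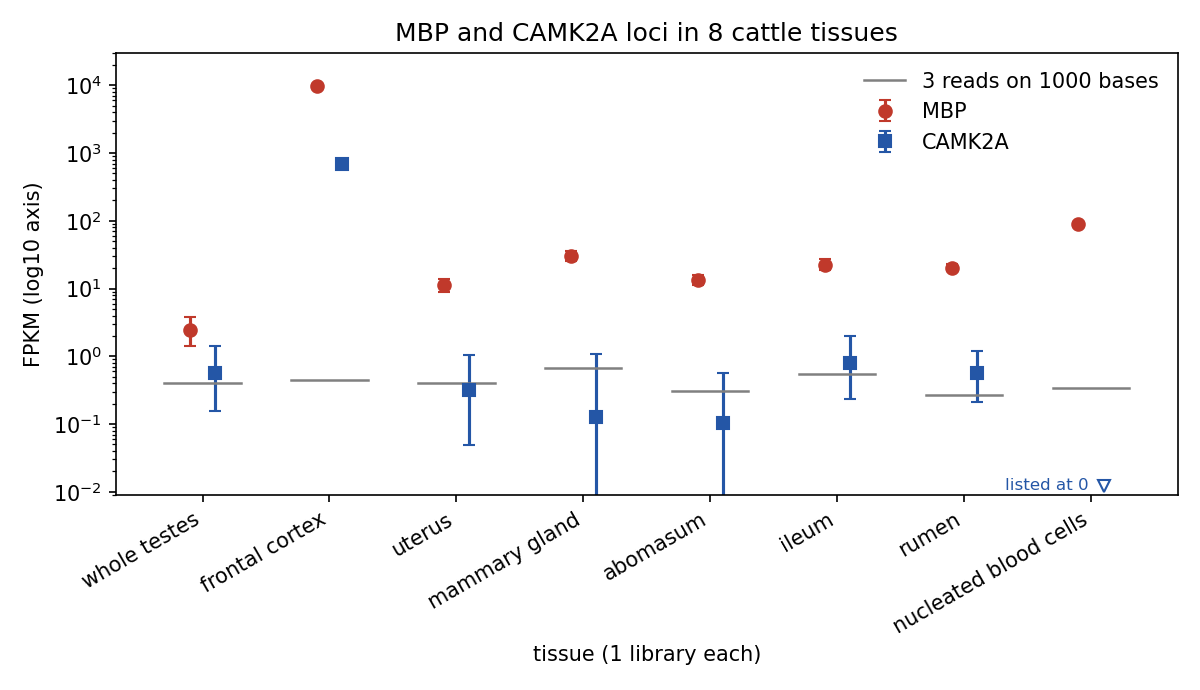
FPKM of the MBP locus (circles) and the CAMK2A locus (squares) in the 8 tissues, 1 library each, on a log10 axis. Bars are 95% Poisson intervals for a transcript of 1000 bases, drawn down to the lower edge of the plot where they go below it, and grey lines mark 3 reads on that length. MBP lies above the grey line in all 8 libraries, with 9930 FPKM in cortex and 88.8 FPKM in blood cells, while CAMK2A lies above it in cortex and, by less, in ileum, rumen and testes and is listed at 0 in blood cells.

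The drop from cortex to the other tissues was then expressed as a ratio of FPKM. For MBP, cortex exceeded blood cells 112-fold (104 to 120), mammary gland 330-fold (278 to 394) and ileum 441-fold (369 to 530). It exceeded rumen 486-fold (427 to 555), abomasum 732-fold (617 to 874) and uterus 894-fold (721 to 1125). The largest ratio was found against testes, 4126-fold (2614 to 6950). The smallest ratio of MBP was thus set by blood cells alone, and without that library it was that of mammary gland. For CAMK2A, cortex exceeded ileum 860-fold (349 to 2926), rumen 1233-fold (577 to 3252) and testes 1234-fold (492 to 4355). No ratio is given against blood cells, where CAMK2A was listed at 0. The ratios of CAMK2A against uterus, mammary gland and abomasum rest on fewer than 3 reads, and their intervals ran from 655 to 14248 in uterus, from 633 upwards in mammary gland and from 1204 to 260024 in abomasum. The interval of CAMK2A against ileum lay above that of MBP against blood cells, which compares each gene with its own next tissue.

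These ratios were placed among those of all genes. Of 24886 genes, 599 (2.41%) were enriched in frontal cortex, and MBP and CAMK2A were both among them, as their selection made likely. On the scale of FPKM + 1, which lowers the ratios of weak genes, cortex exceeded the next tissue by a factor of 111 for MBP and 383 for CAMK2A. Among the 599 genes the median was 10.2, and CAMK2A ranked 3rd and MBP 21st. The next tissue after cortex was whole testes in 218 of the 599 genes (36.4%), uterus in 105 (17.5%) and ileum, as for CAMK2A, in 101 (16.9%). Blood cells, the next tissue for MBP, took this place in 31 genes (5.18%), the smallest number of the 7 tissues. Counting MBP, 3 of the 599 genes had at least its 88.8 FPKM in blood cells, and 8 had at least this level in their next tissue. The rule for enrichment itself keeps these counts low, since it asks for at least 5 times such a level in cortex. Among all 24886 genes, MBP ranked 1064th in blood cells. Within the 599 genes, MBP combined the highest cortex level with a level elsewhere that few of them reached. CAMK2A was 1 of 361 genes with at least 1 FPKM in cortex and less than 1 FPKM in each other tissue, and its cortex level was the 2nd highest of these.

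**Figure D2:**
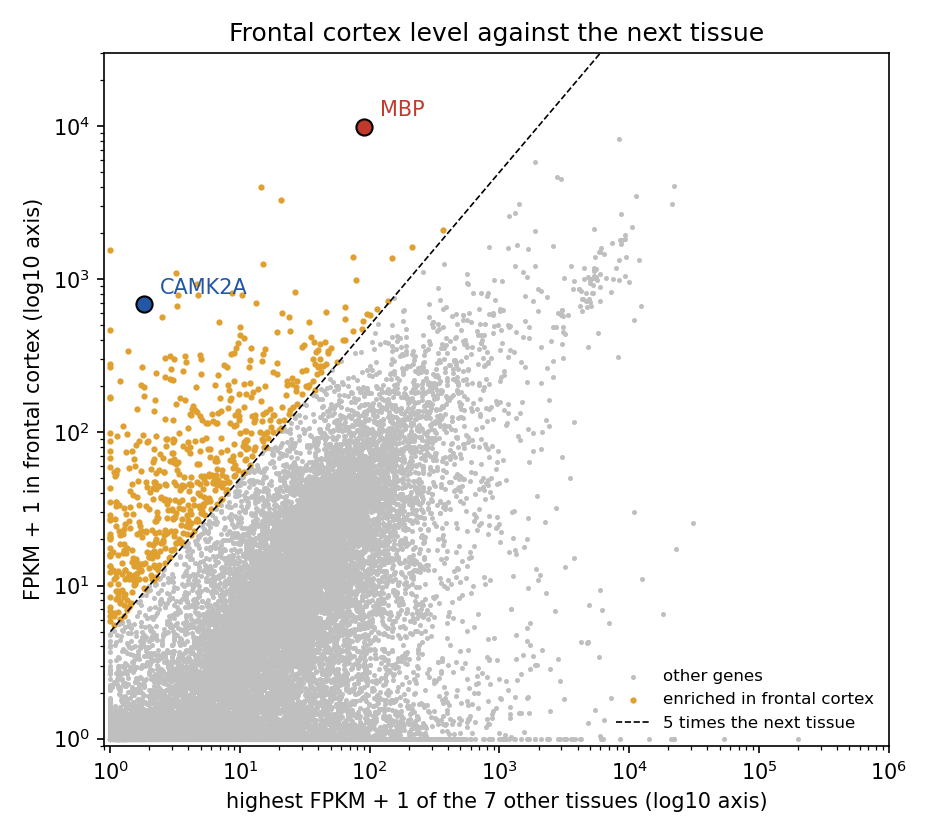
FPKM + 1 in frontal cortex against the highest FPKM + 1 of the 7 other tissues, for 24886 genes on log10 axes. The dashed line marks 5 times the next tissue, orange points are the 599 genes enriched in cortex, and the large points show MBP at the top, right of most orange points, and CAMK2A near the left edge.

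The tau index of tissue specificity, which is 0 for a gene at 1 level everywhere and 1 for a gene found in a single tissue, was computed on log2(FPKM + 1). It was 0.681 for MBP and 0.957 for CAMK2A, against a median of 0.436 over 17484 genes with at least 1 FPKM in any tissue. Of these genes, 31.0% had a tau of at least that of MBP and 9.76% at least that of CAMK2A. On this log scale the most abundant cortex gene was thus less tissue-specific than CAMK2A. The median over the 7 other tissues was 20.4 FPKM for MBP and 0.317 FPKM for CAMK2A.

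The levels of both genes were compared within each library as the ratio of MBP to CAMK2A, which without a pseudocount does not depend on scaling between libraries. In cortex this ratio was 14.4 (14.0 to 14.9). It was 36.6 in rumen (16.9 to 97.6), 28.2 in ileum (11.2 to 97.4), 35.1 in uterus (10.2 to 234) and 4.32 in testes (1.45 to 16.9). Mammary gland had a ratio of 236 and abomasum of 132, with lower limits of 27.3 and 23.4. In blood cells CAMK2A was listed at 0, so no ratio or limit is given. The intervals of rumen, mammary gland and abomasum lay above the cortex value, a description of single libraries in which CAMK2A was below 3 reads on 1000 bases except in rumen. The intervals of uterus, ileum and testes included the cortex value. The order depended on the pseudocount, because CAMK2A was near its floor. With 1 FPKM added to both genes, the ratio was 14.4 in cortex, 13.8 in rumen, 13.2 in abomasum, 13.1 in ileum, 9.19 in uterus and 2.19 in testes, and it exceeded that of cortex in mammary gland (27.6) and blood cells (89.8). The ratio does not show which transcripts of the MBP locus were present in a tissue. In these bulk tissues, a lower level through fewer cells of a type and one through less RNA per cell cannot be told apart.

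**Figure D3:**
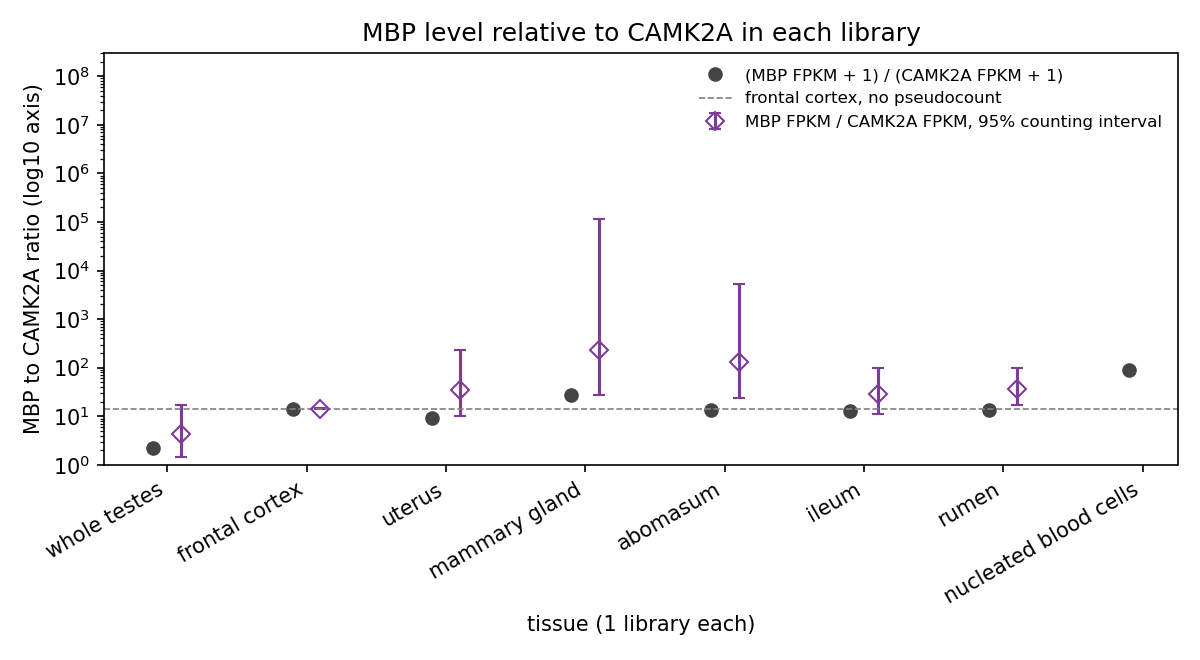
Ratio of MBP to CAMK2A in each of the 8 libraries on a log10 axis, as FPKM + 1 (filled circles) and as FPKM with 95% intervals for transcripts of 1000 bases (diamonds). Blood cells have no diamond because CAMK2A was listed at 0 there, and the dashed line is the cortex ratio of 14.4, which all diamonds but that of testes reach or exceed.

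Patterns over the 8 tissues were compared by Pearson's r of log2(FPKM + 1), given as a description over 8 libraries that share the authors' scaling. The r of MBP and CAMK2A was 0.902 and rested on the cortex library, since it was -0.51 over the 7 other tissues, where CAMK2A was at or near its floor. Of 17483 other genes, 176 had an r of at least 0.99 with CAMK2A, and 0 had such an r with MBP. An r of at least 0.95 was reached by 414 genes with CAMK2A and by 21 with MBP. The gene most like MBP was ENSBTAT00000044822, on chromosome 7 from 20991116 to 21001767, with an r of 0.987, but it ranked 52nd by Spearman's rho and 23rd with a pseudocount of 0.1. It had 9.9997 FPKM in cortex, 1.89 FPKM in blood cells, 1.05 FPKM in ileum and 0.390 to 0.826 FPKM in uterus, mammary gland, abomasum and rumen, and was listed at 0 in testes. The gene most like CAMK2A was ENSBTAT00000025499, on chromosome 5 from 75550904 to 75568048, with an r of 0.999, and it ranked 31st and 3rd under these alternatives. It had 96.9 FPKM in cortex, 0.345 FPKM in ileum, 0.247 FPKM in testes and 0.146 FPKM in rumen, with a listed 0 in uterus, mammary gland, abomasum and blood cells. The levels in ileum, testes and rumen were all below 3 reads on 1000 bases, and so not distinguishable from the tissues listed at 0. Blood cells had the highest level of the 7 tissues other than cortex in 2938 of 17123 genes (17.2%), as for MBP, and in 1182 of these genes testes also had the lowest level.

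The loci around each gene were examined to see where the cortex level began and ended on the chromosome. Above MBP in chromosome coordinates, the nearest locus with an identifier began 5619 bases away and had 4.75 FPKM in cortex and 4.63 to 13.03 FPKM over the 8 tissues. Below MBP, the nearest such locus was 26586 bases away, was listed at 0 in cortex and had its highest level in testes, 4.42 FPKM. Neither neighbour had the cortex level of MBP, and of 4 other genes within 1 Mb of MBP, 0 were enriched in cortex and the highest cortex level was 4.75 FPKM. Below CAMK2A, 7758 bases away, 2 loci with identifiers shared 1 span of 21213 bases. One had 34.0 FPKM in cortex and 10.6 FPKM in ileum, with at most 0.785 FPKM elsewhere. The other had 26.3 FPKM in cortex with a listed 0 in each other tissue. As they share a span, the split of reads between them is uncertain, but both had their highest level in cortex. Above CAMK2A, 7137 bases away, the nearest locus had 0.239 FPKM in cortex and 1.69 FPKM in testes. Within 1 Mb of CAMK2A, 1 of 47 other genes (2.13%) was enriched in cortex, close to the 2.41% of all genes. It was the locus with 26.3 FPKM in cortex just below CAMK2A, whose split of reads is uncertain. The highest cortex level among the 47 genes, 1728 FPKM, was above that of CAMK2A. In ARS-UCD2.0 the protein-coding neighbours are GALR1 and ZNF236 for MBP and SLC6A7 and ARSI for CAMK2A, and the neighbouring loci of the table were not assigned to these names.

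**Figure D4:**
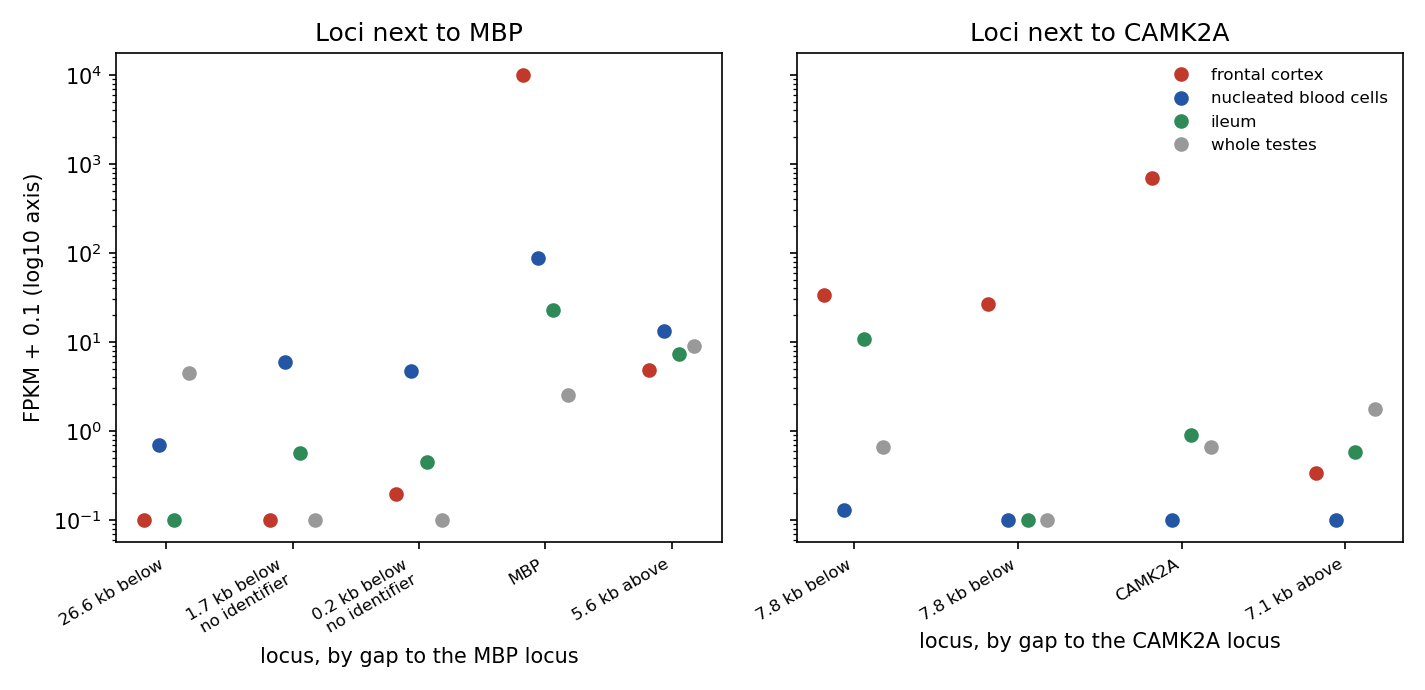
FPKM + 0.1 in frontal cortex, blood cells, ileum and testes, on a log10 axis, at MBP (left), at CAMK2A (right) and at the loci next to them, labelled by the gap in kilobases and by side in chromosome coordinates. The cortex points of 9930 and 688 FPKM stand above all neighbours drawn, cortex also leads at both loci below CAMK2A, and the 2 loci without an identifier below MBP are highest in blood cells.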

How the data were processed

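The authors filtered single-end RNA-Seq reads, aligned them to UMD3.1 with TopHat2 2.0.13 (per the labels) and compared libraries with Cufflinks at default parameters. The deposited values are FPKM for 36801 loci, of which 24886 carry an Ensembl transcript identifier and were taken as genes. The authors' fold changes, p-values and q-values for 28 pairs of tissues were not used. Each tissue had 1 library, so no test was run and no p-value is given.

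Read depth was recovered from loci of 88 to 130 bases without an identifier, with fragments of 200 bases (SD 80, minimum 87), as the depth at which at least 95% of them held whole reads within 0.03. The shares were 97.7% to 100%. In 4 simulated libraries of 200 such loci, drawn from the same model, the search returned the true depth, which tests the search and not the fragment model. Levels were turned into reads for a transcript of 1000 bases, with exact Poisson intervals for levels and exact binomial intervals for ratios.

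Genes named are MBP, CAMK2A, the gene most like each by Pearson's r, and the nearest loci. Lists of myelin, neuronal, astrocyte and microglial genes are not analysed here, since identifiers could not be paired with symbols, and sequences of both genes are not used here. The members and lists were chosen with earlier results of these data known. Alternatives covered the pseudocount, scaling, filter, locus set, fold threshold and each of the 7 tissues other than cortex left out in turn. The cortex library was not left out. Python 3.11.15, pandas 2.3.3 and scipy 1.17.1 were used.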

Additional observations from a re-analysis of the deposited data

Results flagged for a closer look

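A pair of loci without an identifier lie just below MBP on chromosome 24 and were picked out because they held reads outside the genes compared above. They are the only such loci within 10 kb of MBP, a distance chosen after the values were seen, and 0 were found within 10 kb of CAMK2A. The first, from 2482852 to 2483685, ends 1684 bases before MBP and had 5.92 FPKM in nucleated blood cells, which corresponded to 41.0 reads. It was listed at 0 in cortex, testes, abomasum and rumen, with 1 or 2 reads in uterus, mammary gland and ileum. The second, from 2483764 to 2485211, ends 158 bases before MBP and had 4.65 FPKM in blood cells, which corresponded to 64.1 reads. It had 1 read in cortex, 0.0940 FPKM, and 0 to 5 reads in the other tissues. Both loci thus had their highest level in blood cells, the tissue with the second highest MBP level, and at most 1 read in cortex, where MBP had 9930 FPKM. Whether these reads belong to a transcript of the MBP locus was not tested.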

How the results depend on the processing

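Values inside a counting interval for a transcript of 1000 bases, and counts or ranks within 1.5 times of the reported ones, were counted as holding. The main folds, tau and MBP to CAMK2A ratios added 1 FPKM, and the FPKM ratio intervals given above were not used to judge them. The CAMK2A fold of 764, for example, lies inside 349 to 2926 and was counted as moved. Of 70 alternative values 40 held and 30 moved. Cortex stayed the highest tissue for both genes in each alternative fold. MBP kept rank 1 in cortex over all loci, and CAMK2A had rank 136 there. Where a change is given without a reason, the cause was not tested here. No paired analysis was possible because no tissue had a second library.

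The fold of cortex over the next tissue for MBP was 151 with all libraries rescaled to 1 FPKM sum and 131 with median ratio scaling, which moved the other tissues by 0.09 to 0.25 on the log2 scale relative to cortex. Over the tissues left out in turn it ran from 111 to 319, the latter without blood cells, its next tissue. That of CAMK2A was 764 and 849 with pseudocounts of 0.1 and 0.01, which weigh less against its low levels by construction, and ran from 383 to 442. The tau of MBP was 0.552 with a pseudocount of 0.1 and 0.997 without a log, and ran from 0.650 to 0.709. The tau of CAMK2A was 0.856 and 0.999, and ran from 0.9498 to 0.965.

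The ratio of MBP to CAMK2A without a pseudocount was 36.6 in rumen, 28.2 in ileum, 132 in abomasum, 236 in mammary gland, 35.1 in uterus and 4.32 in testes. With a pseudocount of 0.1 it was 889 in blood cells, 31.2 in rumen, 25.2 in ileum, 67.4 in abomasum, 133 in mammary gland and 26.9 in uterus. Relative to the cortex ratio, those of rumen, abomasum, ileum and uterus thus changed direction, from below it with a pseudocount of 1 to above it in both alternatives. The gene most like MBP ranked 52nd by Spearman's rho and 23rd with a pseudocount of 0.1, and that of CAMK2A ranked 31st and 3rd. Cortex-enriched genes numbered 1344 at 2 times, 307 at 10 times and 1027 over all loci, changes that follow from the thresholds and the larger set.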
